A study of Caenorhabditis elegans with 2 samples.

Results

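Head-to-head gene pairs are adjacent protein-coding genes that lie on opposite strands and point away from each other, so that a single stretch of DNA is upstream of both. A pair was counted here when the bodies of the genes did not overlap, no other protein-coding gene lay between them, and the outermost annotated transcription start sites (TSSs) facing each other were at most 1000 bp apart. Genes and TSSs were those of Ensembl release 115 for WBcel235 (ce11). By this rule 1720 pairs were found, made up of 3439 of the 19973 nuclear protein-coding genes, since elof-1 belonged to 2 pairs. A peak summit lay between the TSSs or within 500 bp of either TSS in 143 of the pairs, 8.31% (95% Wilson interval 7.10 to 9.71), and in none of these stretches for the other 1577 pairs. By the thresholded list of a single replicate, the share was 6.40% without replicate 1 and 5.12% (88 pairs) without replicate 2.

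The summits are those of a chromatin immunoprecipitation sequencing (ChIP-seq) experiment on whole young adult Caenorhabditis elegans of strain OP810, collected at 67 hours after synchronisation by bleaching and starvation at the L1 larval stage. The worms carried the transgene wgIs810, in which C06A6.2 is fused to TY1, EGFP and 3xFLAG tags and which also holds unc-119(+), in the unc-119 (tm4063) mutant background, and the precipitation was with an antibody to GFP on chromatin sheared by sonication. There were 2 samples, labelled biological replicates 1 and 2 of this single group, with no second genotype, treatment or untagged strain analysed here, so pairs are compared with other genes and with each other. The material is labelled as whole organisms, so the values average over all cells of the worm.

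A divergent promoter can serve as a shared control region: factors bound there, and the stretch of open chromatin they keep free of nucleosomes, can act on transcription in both directions. Genes for housekeeping functions are often arranged this way in animals, and the bacterial-type chaperonin pair Hsp60 and Hsp10, whose genes lie head to head in mammals too, is a textbook case. In C. elegans many transcripts are trans-spliced, which removes their original 5′ end, so an annotated start can lie downstream of where transcription begins. Where transcription starts was not measured here, and each TSS below is an annotated 5′ end.

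The stretches at the leading summits are shown first, since the results turn on where the summit lies and which letters it covers. The 101 bp centred on the summit follow for 6 of the pairs of highest signal, with the 51st base as the summit, read 5′ to 3′ on the plus strand of WBcel235 (RefSeq assembly). Capitals mark the word GAGAGA, the word ACGCAG or the word GCGCCA, or the reverse complement of one of them.
Y22D7AL.10 and hsp-60, III:1619074-1619174, 101 bp: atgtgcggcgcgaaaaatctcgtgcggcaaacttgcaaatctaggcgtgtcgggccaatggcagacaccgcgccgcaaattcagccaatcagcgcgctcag
K01G5.10 and tasp-1, III:10759195-10759295, 101 bp: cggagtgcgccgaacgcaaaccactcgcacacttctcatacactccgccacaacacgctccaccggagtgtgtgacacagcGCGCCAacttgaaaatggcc
drr-2 and set-16, III:13643674-13643774, 101 bp: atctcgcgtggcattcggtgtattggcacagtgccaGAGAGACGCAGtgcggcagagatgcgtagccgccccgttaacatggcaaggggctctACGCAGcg
F44E5.4 and F44E5.5, II:11759418-11759518, 101 bp: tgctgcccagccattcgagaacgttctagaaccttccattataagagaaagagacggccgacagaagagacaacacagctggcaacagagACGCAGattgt
rpl-20 and Y17G9B.5, IV:4750014-4750114, 101 bp: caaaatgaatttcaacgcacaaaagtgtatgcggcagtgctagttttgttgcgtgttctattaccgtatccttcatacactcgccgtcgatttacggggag
rpl-15 and K11H12.8, IV:654878-654978, 101 bp: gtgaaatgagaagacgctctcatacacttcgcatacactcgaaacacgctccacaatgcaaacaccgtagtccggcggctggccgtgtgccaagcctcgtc

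The next stretches are shown whole, from the base after the TSS of the minus-strand gene (left end) to the base before the TSS of the plus-strand gene (right end), because they are short enough to see both ends at once. The strand, build and capitals are as above. The summit is the 37th base for ears-2 and uncp-18, the 78th for rpl-7A and set-21, the 66th for fbxb-85 and hex-3 and the 79th for his-6 and his-5.
ears-2 and uncp-18, IV:390469-390559, 91 bp: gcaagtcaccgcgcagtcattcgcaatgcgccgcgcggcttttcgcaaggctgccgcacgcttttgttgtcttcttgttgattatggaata
rpl-7A and set-21, IV:4390591-4390843, 253 bp: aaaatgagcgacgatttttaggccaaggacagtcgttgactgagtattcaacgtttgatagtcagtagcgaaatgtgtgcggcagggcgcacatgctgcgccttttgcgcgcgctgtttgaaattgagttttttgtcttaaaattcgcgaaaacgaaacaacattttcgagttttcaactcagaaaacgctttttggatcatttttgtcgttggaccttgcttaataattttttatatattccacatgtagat
fbxb-85 and hex-3, III:10848964-10849221, 258 bp: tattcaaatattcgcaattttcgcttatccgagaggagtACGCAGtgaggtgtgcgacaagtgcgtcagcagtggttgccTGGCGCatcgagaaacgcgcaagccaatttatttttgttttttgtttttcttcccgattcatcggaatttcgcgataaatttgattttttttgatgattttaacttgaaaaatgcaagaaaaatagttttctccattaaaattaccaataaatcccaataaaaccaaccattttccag
his-6 and his-5, V:8534978-8535213, 236 bp: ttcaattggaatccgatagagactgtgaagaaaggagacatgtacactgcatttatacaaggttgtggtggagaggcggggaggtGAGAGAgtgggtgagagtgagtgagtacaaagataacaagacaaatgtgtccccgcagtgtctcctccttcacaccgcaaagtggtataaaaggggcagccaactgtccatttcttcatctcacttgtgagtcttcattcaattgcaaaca

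The last 2 are summit windows of 101 bp from different chromosomes that nearly share a sequence, and are shown because repeated sequence bears on how a peak is placed.
aka-1 and ubc-6, II:7478901-7479001, 101 bp: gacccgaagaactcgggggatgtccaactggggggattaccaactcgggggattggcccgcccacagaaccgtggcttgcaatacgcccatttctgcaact
ruvb-1 and tofu-1, V:9980843-9980943, 101 bp: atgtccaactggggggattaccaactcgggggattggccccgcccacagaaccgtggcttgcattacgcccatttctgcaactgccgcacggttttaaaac

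Genes in head-to-head pairs had a summit near their start more often than genes in other arrangements. A conservative summit lay within 500 bp of a TSS for 267 of 3439 genes in pairs, 7.76% (95% Wilson interval 6.92 to 8.71), beside a background of 3.28% over all 19973 genes and 2.35% (2.13 to 2.59) over the 16534 genes outside the pairs. Genes with a head-to-head neighbour farther than 1000 bp had a summit in 145 of 4987 cases, 2.91% (2.48 to 3.41). Genes whose upstream neighbour lay on the same strand had one in 200 of 10156, 1.97% (1.72 to 2.26), and genes whose start lay inside another gene in 43 of 1386, 3.10% (2.31 to 4.15). The interval for the pairs lay above that of every other arrangement with more than 5 genes. No test over samples exists for these shares with a single group, the intervals cover counting error only, and genes that share a summit are not independent.

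Part of this difference comes with the counting, since a summit between close starts is in reach of both genes. When each summit was counted only for the gene with the nearest TSS, the share was 159 of 3439 genes in pairs, 4.62% (3.97 to 5.38), beside 371 of 16534 genes outside them, 2.24% (2.03 to 2.48). The interval for the pairs still lay above that of the other genes, with no summit counted more than once. Without replicate 2, whose absence lowers the counts most, 169 of 3439 genes in pairs (4.91%) had a summit, beside 2.02% of all genes. Per length of DNA, the pair windows held 152 summits in 2.57 Mb, or 59.2 per Mb, against 417 summits in 20.1 Mb of windows around other TSSs, or 20.7 per Mb. The ratio was 2.86 (95% interval from the counts 2.38 to 3.44). The windows are not built alike: those around other TSSs use every annotated TSS of a gene, and the pair windows only the facing outermost ones. The stretches between the facing TSSs alone, 0.849 Mb in all, held 125 summits, or 147 per Mb. Upstream stretches of other genes were not counted alone, so this density has no like value beside it.

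**Figure D1:**
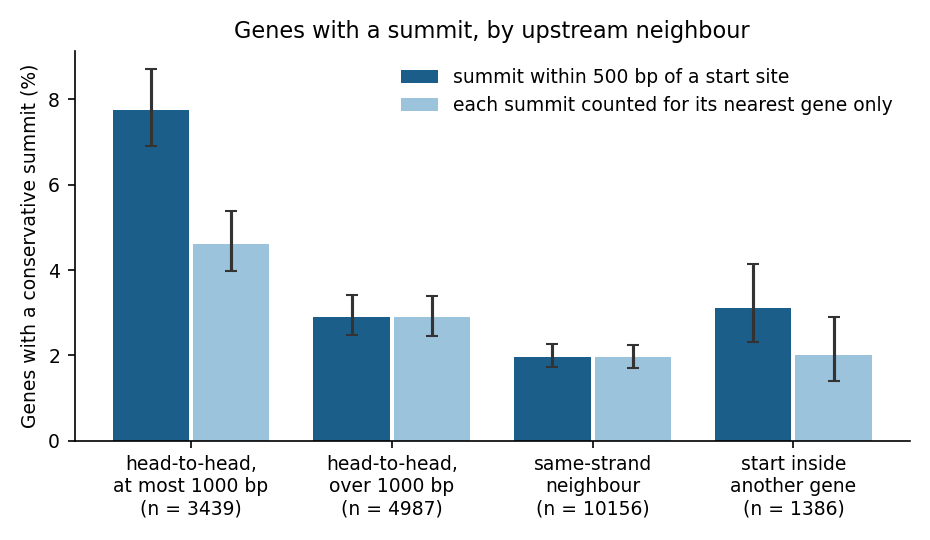
Percent of genes with a conservative summit (y axis) in 4 arrangements of the upstream neighbour (x axis, n genes below each), with every gene within 500 bp of the summit counted (dark bars) or only the gene with the nearest start site (light bars); error bars are 95% Wilson intervals. The first pair of bars, for genes in head-to-head pairs at most 1000 bp apart, stands at 7.76% and 4.62%, and the highest other bar is 3.10%.

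The difference was smaller in the ranked list. It holds 36238 joint peaks, most of which are below the threshold for repeatability, and by it 1331 of 3439 genes in pairs (38.7%) had a summit within 500 bp, beside a background of 33.6% over all genes and 32.6% of genes outside the pairs. Among the 1577 pairs without a conservative summit, 634 (40.2%) held a ranked one and 943 held none at all. The leading conservative signal had a median of 116 in the 143 pairs with a summit, while the highest ranked signal had a median of 31.0 in those 634. Signal here means the value that the authors' caller gave each peak. It serves only to describe and rank peaks, and its scaling is not stated.

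The summits in pair windows were of higher signal than those elsewhere in the list. The median was 112 (middle 50% from 79.1 to 167) over the 152 summits in pair windows, against 90.2 over the 427 others within 500 bp of a TSS and 83.6 over the 767 elsewhere. In the replicates taken singly, the median signal of the overlapping ranked peak was 52.9 in replicate 1 and 61.2 in replicate 2 for the pair windows, and 43.8 and 49.3 for the other TSS windows. Of the 150 pair summits with a ranked peak in each replicate, 106 were higher in replicate 2, by a median factor of 1.16, close to the 1.14 over all conservative peaks. Both replicates' own thresholded lists held 75 of the 152 (49.3%, 41.5 to 57.2), against 168 of 427 (39.3%, 34.8 to 44.1) at other TSSs. Replicate 1 alone listed 16 more, replicate 2 alone 28, and neither the last 33, so slightly under 50% of the pair summits were in the lists of both replicates.

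Within the 1000 bp limit, pairs of intermediate spacing held a summit most often. The share was 12 of 246 pairs (4.88%) at 1 to 200 bp between TSSs, 54 of 470 (11.5%, 8.91 to 14.7) at 201 to 400 bp and 40 of 393 (10.2%, 7.56 to 13.6) at 401 to 600 bp. It was 24 of 345 (6.96%) at 601 to 800 bp and 13 of 266 (4.89%, 2.88 to 8.18) at 801 to 1000 bp. The closest and the widest pairs within the limit were thus alike, with intervals that lie below the value at 201 to 400 bp. A wider pair has a longer window, and per Mb of window the order was 43.0, 95.1, 69.4, 42.8 and 31.7 summits from the closest to the widest bin. Beyond the limit, where the windows are longer still, the shares were 4.67% at 1001 to 1200 bp and between 6.47% and 11.0% in the 4 bins up to 2000 bp. Per Mb of window these more distant bins held 26.65, 33.34, 40.85, 55.32 and 35.0 summits, in order of distance. The highest of them, at 1601 to 1800 bp, was close to the 201 to 400 bp bin by share but lower per Mb. The median spacing was 439 bp (middle 50% from 295 to 612) in the pairs with a summit and 479 bp (268 to 701) in those without.

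**Figure D2:**
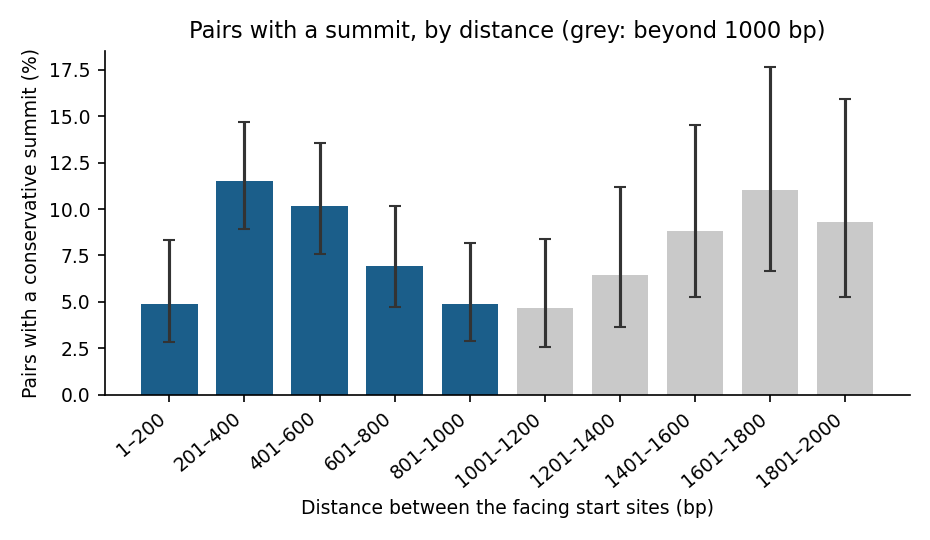
Percent of pairs with a conservative summit between the start sites or within 500 bp of either (y axis), by distance between the facing start sites in bins of 200 bp (x axis), with 95% Wilson intervals; blue bars are head-to-head pairs by the rule and grey bars are more distant neighbours. Within the rule the bars are highest at 11.5% and 10.2% for 201 to 600 bp, and lowest at 4.88% and 4.89% at the ends.

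At the limit itself, the pairs just inside were hgap-2 and C34C6.9 and msrp-4 and F46F5.10, each with TSSs 999 bp apart. Just outside were Y54G2A.52 and Y54G2A.10 and rike-1 and C53A5.13, each at 1003 bp. None of these 4 had a summit. At the edge of the 500 bp window, summits 499 bp beyond a TSS at ZK1248.17 and H41C03.3 and 476 bp beyond one at B0432.10 and misc-1 were counted. Summits 520 bp beyond F22E5.13 and F22E5.6 and 704 bp beyond wht-7 and Y42G9A.1 were not.

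Within the windows the summits lay mainly in the shared upstream stretch. Of the 152 summits, 125 were between the TSSs, 82.2% (75.4 to 87.5), where 32.1% of the window length in the pairs with a summit lay. The remaining 27 were within the 500 bp beyond a TSS, 12 on the side of the minus-strand gene and 15 on that of the plus-strand gene. Their places were untranslated exon for 12, intron for 8, coding exon for 6 and beyond the gene's other end for 1. With each gap cut into 3 equal parts, the middle part held 61 of the 125 summits (48.8%, 40.2 to 57.5), the part next to the minus-strand gene 22 and the part next to the plus-strand gene 42. The summits leaned away from the minus-strand gene: 88 of 152 (57.9%, 49.95 to 65.5) were nearer to the plus-strand gene and 64 to the minus-strand gene, although that interval reaches 50%.

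In most pairs a summit was within reach of both starts, which the counting rule partly fixes. The TSSs were at most 500 bp apart in 85 of the 143 pairs, where any summit between them is within 500 bp of both. The median distance was 138 bp (middle 50% from 62 to 204) to the nearer TSS and 313 bp to the farther one. In 111 of the 143 pairs (77.6%, 70.1 to 83.7), a single summit was within 500 bp of both facing TSSs, and 58 of 152 summits (38.2%) were within 100 bp of either. A peak does not say which of the genes it belongs to, and the expression of the genes was not measured here.

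**Figure D3:**
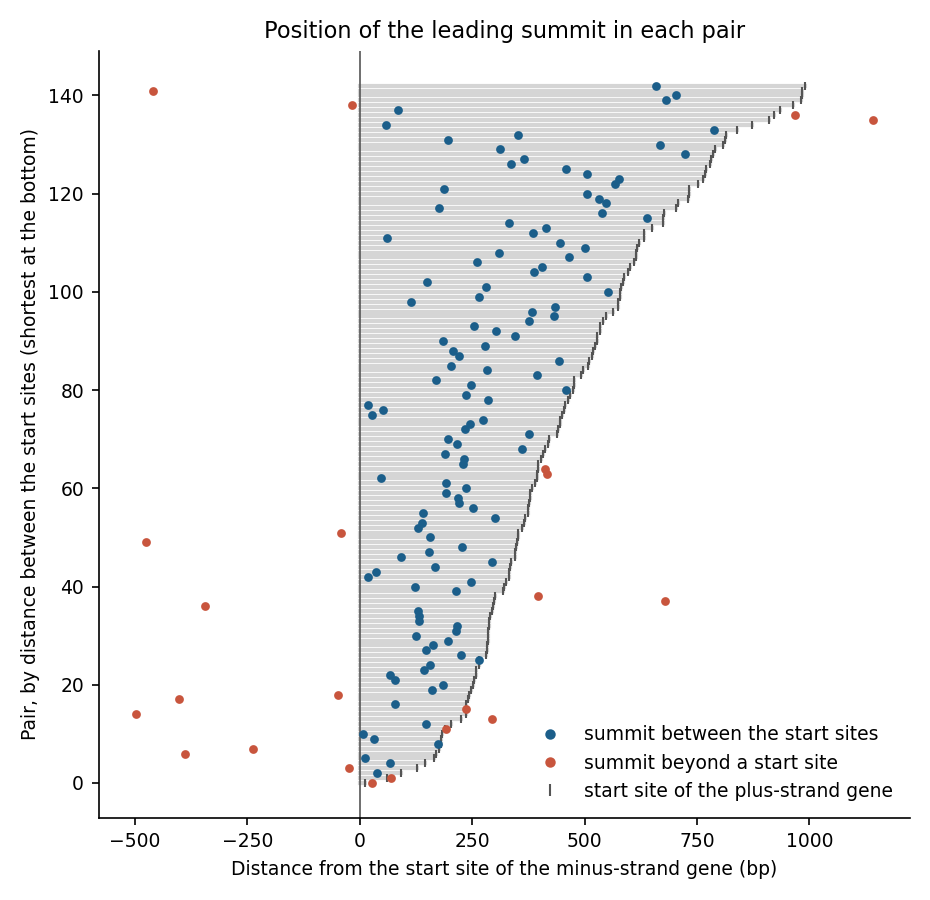
Position of the summit of highest signal in each of the 143 pairs, in bp from the start site of the minus-strand gene (x axis; negative values lie within or beyond that gene), with 1 row per pair ordered by distance (y axis) and grey bars for the stretch between the start sites. Blue points are the 121 leading summits between the start sites and red points the 22 beyond them.

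Most pairs with a summit had a single one, and 9 had 2. At ecps-1, a proteasome adaptor gene, and atx-2, the ataxin-2 gene, the TSSs were 838 bp apart with a summit near each end. The first, of signal 285 (122 in replicate 1 and 163 in replicate 2), was 51 bp from the TSS of atx-2. The second, of signal 122 (55.4 and 64.6), was 194 bp from that of ecps-1. The pair Y39A1A.22 and mrpl-12, a mitochondrial ribosomal protein gene, had summits of like signal, 77.3 between the TSSs and 72.7 within the minus-strand gene. The pair dnc-1 and lsm-7 had 79.4 on the side of lsm-7 and 69.5 between the TSSs.

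In the other 6 pairs with 2 summits the second was weak. At ruvb-1 and tofu-1 it had a signal of 29.9 beside 272. At R12E2.13 and suco-1 it had 4.0 beside 99.1, and at F56G4.6 and wbp-4 it had 5.96 beside 83.5. These peaks touch a stronger one, and the value quoted for a replicate is that of the highest overlapping peak in its ranked list, so it can belong to the neighbour. The pair ZK1248.17 and H41C03.3, with a joint signal of 11.8 but 224 in replicate 1 and 254 in replicate 2, is such a case and the only pair whose leading signal was under 50.

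The pair of highest signal brings together the mitochondrial chaperonin genes. hsp-60 encodes the mitochondrial Hsp60, which folds imported proteins, and Y22D7AL.10 encodes its small co-chaperonin of the Hsp10 type. Their TSSs lie 813 bp apart on chromosome III, and the peak between them had a joint signal of 1146, with 557 in replicate 1 and 592 in replicate 2. The summit was 195 bp from the TSS of Y22D7AL.10 and 618 bp from that of hsp-60, so it is in reach of the co-chaperonin gene alone by the 500 bp rule. The replicates were close to each other, and no other pair but 1 came near this signal.

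That other pair was K01G5.10, a hydrolase-like gene, and tasp-1, the homolog of the protease taspase, with a joint signal of 1135 (501 in replicate 1 and 630 in replicate 2) and a summit 62 bp from the TSS of tasp-1. The next was rpl-20, a large ribosomal subunit gene, and Y17G9B.5, whose RefSeq product is a mitochondrial protein of the Toll pathway intermediate type, with 568 (260 and 311) and TSSs 462 bp apart. The fourth was drr-2, which encodes an RNA-binding protein, and set-16, the MLL-type histone methyltransferase gene, with 549 (258 and 292). In each of these, replicate 2 was the higher, which was so at 18 of the 20 leading pairs. The exceptions were ruvb-1 and tofu-1 (135 in replicate 1 and 128 in replicate 2) and rpl-12 and lin-54 (136 in each, to 3 digits).

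**Figure D4:**
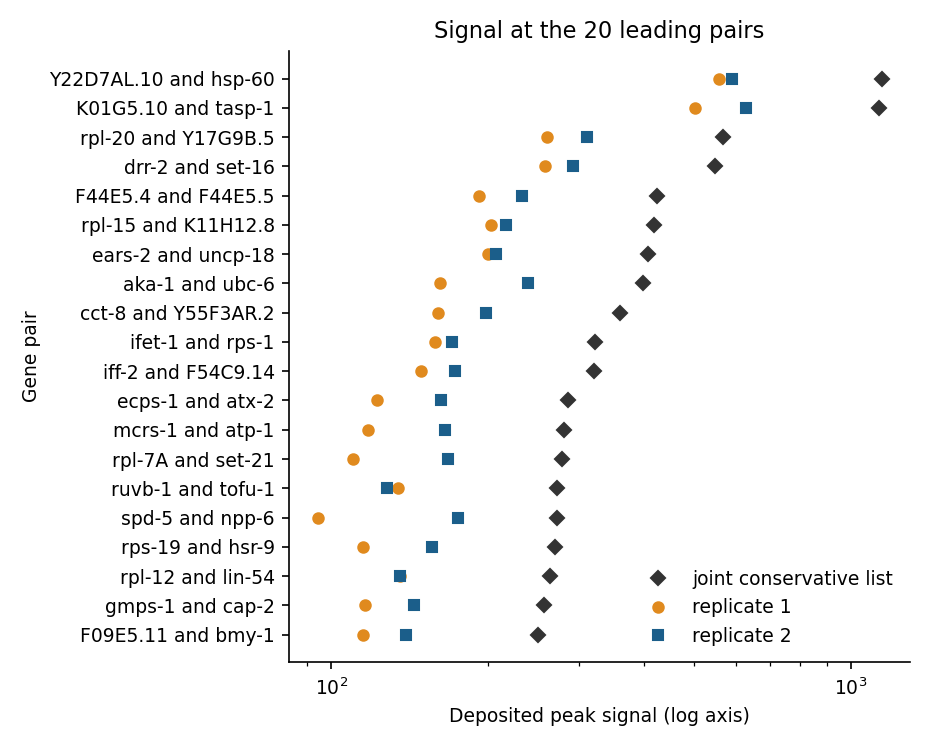
Deposited signal (log x axis) at the 20 head-to-head pairs of highest joint signal (y axis), in the joint conservative list (diamonds) and for the overlapping ranked peak of replicate 1 (circles) and replicate 2 (squares). The joint signals run between 1146 and 249.6, with the top 2 pairs above 1000 and the others below 600, and replicate 2 is the higher at 18 pairs.

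F44E5.4 and F44E5.5, which encode inducible cytosolic Hsp70 chaperones, came next, with a joint signal of 424 (192 in replicate 1 and 233 in replicate 2) and a summit nearly midway, 157 bp from the TSS of F44E5.4 and 194 bp from that of F44E5.5. The genes are near-identical copies, so reads that fall in their bodies can be split between them. The 101 bp printed above for this pair hold alternating inverted GAA units at a spacing of 2 bp, the pattern known as a heat shock element, bound by heat shock factor HSF-1. The pattern was searched on either strand after the printed stretches were seen. A run of at least 3 units was found at 3 of 152 pair summits (1.97%, 0.674 to 5.64), in the middle of 11 of 1577 gaps without a summit (0.698%) and at 11 of 1194 other conservative summits (0.921%). In the middle of the gaps of the pairs with a summit it was as frequent, 3 of 143 (2.10%). A run of at least 2 units was less frequent at the pair summits, 7 of 152 (4.61%, 2.25 to 9.20), than in the middles without a summit, 185 of 1577 (11.7%, 10.2 to 13.4). The other pairs with 3 units at the summit were hsp-110 and rpn-3, and cyn-7 and bath-36. A match is only a description of the letters, and the intervals for 3 units overlap.

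Closer spacing did not keep a pair from the top. ears-2, which encodes a mitochondrial glutamyl-tRNA synthetase, and uncp-18, whose RefSeq product is of the syntaxin-binding type, lie with TSSs 92 bp apart, the shortest spacing among the 20. The signal was 407 (200 in replicate 1 and 208 in replicate 2). The widest among the 20 was iff-2, the initiation factor eIF5A gene, and F54C9.14, at 935 bp with a signal of 320 (149 and 173) and the summit 84 bp from iff-2. Only mcrs-1 and atp-1 and spd-5 and npp-6, of the 20, had the leading summit beyond a TSS. For atp-1, the ATP synthase alpha subunit gene, it lay 1 bp into the gene (281; 118 and 166). For spd-5, a centrosome scaffold gene that faces the nucleoporin gene npp-6, it lay 237 bp inside (272; 94.1 and 175). All 20 were in both replicates' own thresholded lists, while over all 143 pairs 73 were in both, 12 in that of replicate 1 alone, 26 in that of replicate 2 alone and 32 in neither.

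Of the lists, chaperones had the highest share of pairs with a summit. The lists used here are sets of WormBase gene classes, and they were drawn up with earlier results of these data known, so their counts describe and do not test. Of 26 pairs with a gene of the chaperone classes, 11 had a summit (42.3%, 25.5 to 61.1), beside 8.31% of all 1720 pairs. Of the chaperone genes in pairs, 11 of 29 had a summit (37.9%), and of those outside pairs 7 of 40 (17.5%). In 8 of the 11 pairs the leading peak was in both replicates' own lists, in 2 in that of replicate 2 alone and in 1 in that of replicate 1 alone. The summit lay between the TSSs in 10 of the 11.

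These chaperones work in several compartments. cct-8 and cct-1 encode subunits of the cytosolic chaperonin, which folds actin and tubulin, and each lies in a separate pair. The signal was 360 (160 in replicate 1 and 198 in replicate 2) at cct-8 and Y55F3AR.2, and 166 (76.0 and 87.6) at mig-5 and cct-1. The prefoldin gene pfd-1, whose product hands clients to that chaperonin, had 177 (83.5 and 94.9), and its partner F01G4.6 encodes a mitochondrial phosphate carrier. hsp-110, an Hsp70 exchange factor gene, faces the proteasome subunit gene rpn-3 and had 157 (75 and 90.6). Compared with the 116 median of the leading signals of all pairs with a summit, each of these was higher.

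The endoplasmic reticulum and mitochondria were represented as well. enpl-1, the gene for the Hsp90 of the endoplasmic reticulum, had 139 (52.9 in replicate 1 and 91.7 in replicate 2) with the summit 50 bp from its TSS, against 361 bp from its partner imp-2. hsp-6, the mitochondrial Hsp70 gene, had 109 (47.9 and 54.8) in a pair with the nucleolar gene C37H5.5. Genes of the DnaJ class, co-chaperones of Hsp70, were in 4 pairs. These were dnj-29 with ndua-2 (215; 93.7 and 114), dnj-19 with nhr-47 (157; 81.1 and 75.3), dnj-28 with supr-1 (80.7; 28.4 and 56.6) and dnj-12 with mtx-1 (78.2; 47.6 and 33.2). The last 2 fall below the median of all conservative peaks, 87.4. The summit was nearer to the gene of the chaperone classes than to its partner in 3 of the 11 pairs. At hsp-60 the nearer partner, Y22D7AL.10, is the co-chaperonin gene, which has no gene class symbol and so is not in the list.

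Ribosomal protein genes were often arranged head to head and often held a summit, but not more often than elsewhere. Of 81 such genes 48 were in pairs (59.3%, beside 17.2% of all genes), and 12 of their 45 pairs had a summit (26.7%, 16.0 to 41.0). Among the genes themselves, 12 of 48 in pairs (25%) and 10 of 33 outside pairs (30.3%) had one. So the wider difference between pairs and other genes was not seen within this list, at numbers that leave wide intervals. All 12 summits lay between the TSSs, 11 were in both replicates' own lists, and the median signal was 244.

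The ribosomal protein pairs ran between 568 at rpl-20 and 86.1 at rab-11.1 and rpl-7. Those named by signal after rpl-20 were rpl-15 with K11H12.8 (418; 203 in replicate 1 and 217 in replicate 2), rps-1 with the translational repressor gene ifet-1 (322; 158 and 171) and rpl-7A with the SET domain gene set-21 (278; 110 and 168). Further pairs joined a ribosomal protein gene to a regulator. rps-19 faces hsr-9, the homolog of the DNA damage protein 53BP1 (269; 114.9 and 156). rpl-12 faces lin-54, which encodes the DNA-binding subunit of the DREAM complex (264; 136 and 136). In the last of these the summit was 47 bp from rpl-12 and 346 bp from lin-54. Small nucleolar RNA genes are hosted by several ribosomal protein genes, and one starts in the window of 6 of these 12 pairs, among them F54E7.10, 243 bp from the summit of ska-3 and rps-12, and F39B2.14, 79 bp from that of tmem-107 and rps-26.

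Other lists of basic cell functions had shares of 14.3% to 24.0%, beside 8.31% of all pairs. Of the translation factor and tRNA synthetase pairs 6 of 30 had a summit (20%, 9.51 to 37.3), led by ears-2 and iff-2 and followed by eef-2, the elongation factor 2 gene (241; 109 in replicate 1 and 132 in replicate 2), with the summit at its TSS. Of the splicing factor pairs 6 of 25 had one (24.0%, 11.5 to 43.4), all weak, between 90.7 at clu-1 and prp-40 and 69.2 at snu-13 and rsp-7. None of these 6 was in both replicates' own lists and 4 were in neither. Of the nuclear pore and transport pairs 4 of 20 had a summit (20%, 8.07 to 41.6), and of the respiratory chain pairs 5 of 35 (14.3%, 6.26 to 29.4). The intervals of the nuclear pore and respiratory chain lists include the share of all pairs. The respiratory chain pairs were led by atp-1 and ndua-2, with atp-2, the ATP synthase beta subunit gene, at 83.2 (55.0 and 31.6).

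Several further lists had at most 1 pair with a summit. The mitochondrial ribosome had 1 of 25 (4.0%, 0.710 to 19.5), the proteasome 1 of 20 and replication and cell cycle genes 1 of 22. Cuticle collagens had 0 of 17, which allows a share of up to 18.4% (upper Wilson bound). The single V-ATPase pair was C17H12.2 and vha-8 (72.2) of 6, and the single pair of RNA polymerase and general transcription genes ift-43 and mdt-26 (158) of 11. The only mitochondrial import pair had none. The interval of each list in this paragraph includes the 8.31% of all pairs.

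The large families of F-box and BTB and of chemoreceptor genes had low shares whose intervals include the 8.31% of all pairs. F-box and BTB genes, which encode substrate adaptors of ubiquitin ligases, had 2 of 71 pairs with a summit (2.82%, 0.776 to 9.70), and chemoreceptor genes, expressed mainly in sensory neurons, 3 of 94 (3.19%, 1.09 to 8.97). In 2 of these chemoreceptor pairs, those described here, the partner is a gene of basic function. rsr-1, which encodes a splicing-related protein, faces sri-5 (136; 69.2 in replicate 1 and 68.6 in replicate 2). There the summit was nearer to the chemoreceptor gene, 227 bp from sri-5 against 505 bp from rsr-1. icl-1, the glyoxylate cycle gene, faces srh-2 (68.9; 30.8 and 49.8), with the summit 344 bp from the TSS of icl-1 and 641 bp from that of srh-2. Of the chemoreceptor genes 3 of 108 in pairs (2.78%) had a summit, against 3 of 932 outside pairs (0.322%). Of the F-box and BTB genes 2 of 85 in pairs (2.35%) had one, against 2 of 310 outside pairs (0.645%).

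Transcription factor genes were seldom in pairs, 34 of 451 (7.54%). A summit was in 5 of their 31 pairs (16.1%, 7.09 to 32.6), an interval that includes the 8.31% of all pairs. Of the genes in pairs 14.7% had a summit, against 1.92% of the 417 outside. The pairs of the nuclear receptor genes nhr-68 (197; 62.2 in replicate 1 and 128 in replicate 2), nhr-47 (157) and nhr-142 (143; 80.5 and 62.5) led. They were followed by those of ceh-38, a ONECUT homeobox gene (129; 73.4 and 53.7), whose summit was 67 bp inside the gene, and zip-4, a bZIP gene (124; 56.2 and 60.9). The summit was nearer to the transcription factor gene in 3 of the 5 pairs. It was 28 bp from H12C20.7 against 422 bp from nhr-68. At nhr-142 it was 138 bp from the partner F44E7.9 against 539 bp from the facing TSS of nhr-142, which is beyond 500 bp. In 4 of the 5 both replicates' own lists held the peak. Here replicate 1 was the higher in 3 of 5 pairs, unlike the pairs as a whole, of which 103 of 143 were higher in replicate 2.

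Histone genes are mostly arranged head to head, 63 of 81 in pairs (77.8%), and 4 of their 32 pairs had a summit (12.5%, 4.97 to 28.1). That interval includes the 8.31% of all pairs. htz-1, the gene of the variant H2A.Z, faces the cohesin release gene wapl-1 and had 162 (54.7 in replicate 1 and 111 in replicate 2). Pairs of core histone genes were weaker. his-6 and his-5 had 94.9 (29.9 and 70.8), his-17 and his-18 had 74.0 (34.2 and 35.3) and his-35 and his-41 had 73.0 (37.8 and 37.5). Many core histone genes are near-identical copies, so these peaks are uncertain as to copy, and 28 of the 31 pairs made of 2 histone genes had no summit.

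**Figure D5:**
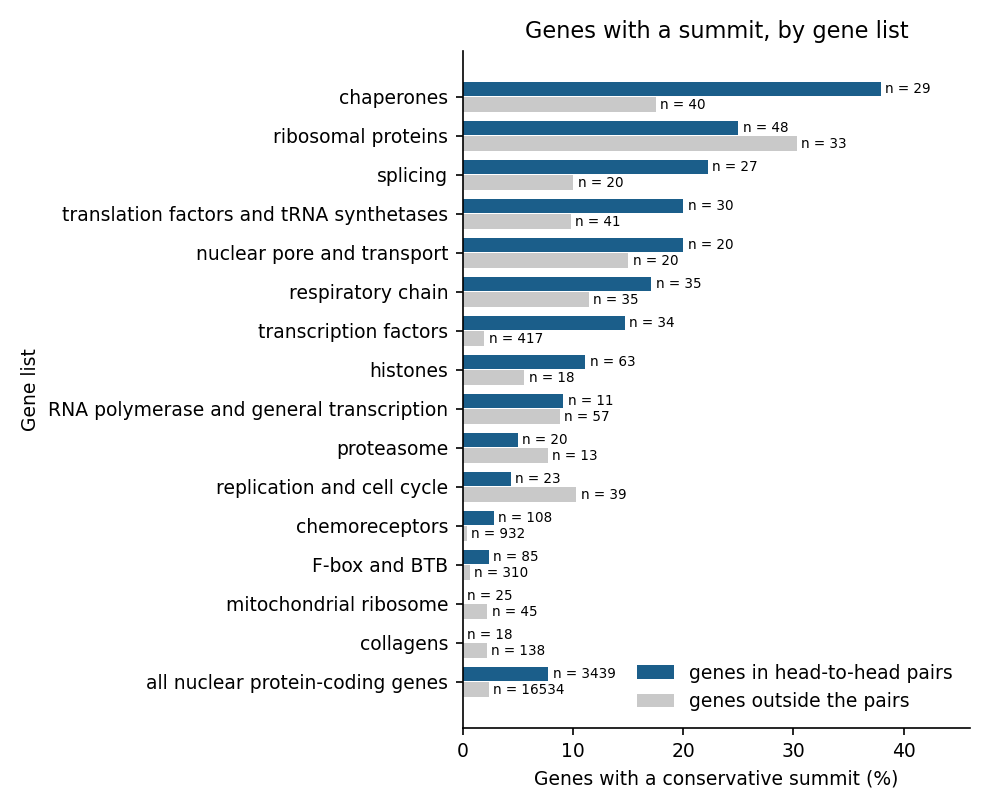
Percent of genes with a conservative summit within 500 bp of a start site (x axis) in each gene list with at least 10 genes in pairs (y axis), for genes in head-to-head pairs (blue) and genes of the same list outside the pairs (grey), with the number of genes beside each bar. Chaperones lead in pairs with 37.9% against 17.5% outside, ribosomal proteins have 25% against 30.3%, and the bottom row gives all genes, 7.76% against 2.35%.

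Across the lists, 59 of the 143 pairs with a summit had a gene of any list, against 483 of all 1720 pairs. Pairs with a listed gene thus had a summit in 59 of 483 cases, 12.2% (9.59 to 15.4), and the 1237 pairs with no listed gene in 84, 6.79% (5.52 to 8.33). Pairs in which both genes were listed numbered 100, and 8 had a summit, close to the 8.31% of all 1720 pairs. Besides the 3 core histone pairs, these were dnj-29 and ndua-2, dnj-19 and nhr-47, hsp-110 and rpn-3, eef-1A.1 and rfc-4 (117; 51.6 in replicate 1 and 67.1 in replicate 2) and rsp-2 and rsp-1 (82.5; 37.2 and 45.5). The last joins a pair of SR splicing factor genes.

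The sequence at the summits was richer in G and C than the middle of the gaps. The median GC content was 50.5% in the 101 bp at the 152 pair summits, against 37.6% in the middle 101 bp of the gaps of the same pairs and 33.7% in the middle of the 1577 gaps without a summit. It was 47.5% at the 1194 other conservative summits. The whole gap differed less, with a median of 34.8% in pairs with a summit and 33.0% in pairs without. The median at the summits was thus above that of the whole gaps and of their middles. A summit window can overlap the middle of its gap, and some lie outside the gap, so the rest of the gap was not measured apart. GC content also affects how well fragments are amplified and sequenced, and its part in these peaks was not tested.

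Certain words went with the summits. GCGCCA, on either strand, was in 33 of 152 summit windows (21.7%, 15.9 to 28.9), against 40 of 1577 middles of gaps without a summit (2.54%, 1.87 to 3.44). It was in 107 of the 1194 other summit windows (8.96%, 7.47 to 10.7), and in 14 of the 143 middles of gaps with a summit (9.79%). Among all 2080 words of 6 bp it had the largest excess in percentage points at summits over the middles without a summit, and it was picked for that after the values were seen, so this is a description. Larger differences ran the other way, at AT-rich words. The words next in order, CGCCAG (18.4% of summit windows and 1.84% of middles) and GCGCAC (19.7% and 4.31%), overlap it or are as rich in G and C, and the longer GCGCCAG was in 23 summit windows (15.1%) and 12 middles (0.761%).

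GCGCCA was not a mark of the strongest pairs. It was at the leading summit of 32 pairs, whose median signal was 112, against 120 in the 111 pairs without it, and of the 20 pairs of highest signal it was at K01G5.10 and tasp-1 alone. Among the printed stretches it also stands in that of fbxb-85 and hex-3. GAGAGA was in 25 of 152 pair summit windows (16.5%, 11.4 to 23.2) and 117 of 1577 middles without a summit (7.42%), but in 303 of 1194 other summit windows (25.4%, 23.0 to 27.9). ACGCAG was in 22 (14.5%) of the pair summit windows, 61 (3.87%) of the middles and 187 (15.7%) of the other summit windows. The AT-rich word AAAAAT was in 23.0% of pair summit windows and 55.5% of the middles without a summit.

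Part of the leading peaks lie in repeated sequence. A word of 25 bp found more than once in the genome was in 21 of 152 pair summit windows (13.8%, 9.22 to 20.2), against 244 of 1194 other summit windows (20.4%, 18.2 to 22.8) and 231 of 1577 middles without a summit (14.6%, 13.0 to 16.5). Words with 10 or more copies were in 14 (9.21%), 131 (11.0%) and 57 (3.61%) of these windows. The windows of aka-1 and ubc-6 and of ruvb-1 and tofu-1, printed above, hold a word with 93 and 92 copies. Other members of this group were cids-2 and phip-1 (248), czw-1 and F20D12.12 (184.5), F30A10.9 and usp-48 (171) and C55A6.1 and C55A6.10 (150). The window of spd-5 and npp-6 (272), among the 20 leading pairs, also held a repeated word, with 75 copies. Reads from such copies may not be placed uniquely, and how they were handled is not stated. Without any summit in repeated sequence, a choice made after seeing the data, 124 of 1720 pairs (7.21%) and 232 of 3439 genes in them (6.75%) had a summit, beside 2.80% of all genes.

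The pairs with a summit also differed from the others in their annotation. The outermost start was the first coding base, meaning that no 5′ leader is annotated, for 26 of 286 genes in pairs with a summit (9.09%, 6.28 to 13.0) and 681 of 3154 in pairs without (21.6%, 20.2 to 23.1). The 3 bases before that start were CAG, as at a splice acceptor, for 109 of 286 (38.1%, 32.7 to 43.9) and 698 of 3154 (22.1%, 20.7 to 23.6). In the stretch of fbxb-85 and hex-3 printed above, for example, the right end reads ccag just before the TSS of hex-3. A tRNA, snRNA or snoRNA gene started in the window of 10 of 143 pairs with a summit (6.99%, 3.84 to 12.4) and 21 of 1577 without (1.33%, 0.873 to 2.03). Such a gene was closest to the summit at sec-15 and C28G1.2, where a tRNA gene starts 2 bp away (signal 116), at F22G12.4 and F22G12.5 (tRNA, 13 bp, 71.5) and at tim-1 and Y75B8A.23 (the spliced leader gene sls-2.8, 19 bp, 142). For those the peak may be counted at either gene. Both genes had a gene class symbol, a sign that they have been studied, in 75 of 143 (52.4%) and 579 of 1577 (36.7%) pairs.

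By chromosome, the share of pairs with a summit was highest on III, 34 of 284 (11.97%, 8.70 to 16.3), and lowest on II, 21 of 317 (6.62%, 4.37 to 9.91), with intervals that overlap. Chromosome X had few pairs, 79, which held 5.79% of its genes against 16.8% to 22.1% on the autosomes, and 7 of them had a summit (8.86%). Among the 267 conservative peaks of X, 7 were in pair windows.

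Among pairs that missed the conservative list, the highest ranked signals were at attf-2 and F09G2.2 (102; 25.5 in replicate 1 and 80.7 in replicate 2), sqv-3 and vha-1 (82.0; 14.6 and 64.8) and mogs-1 and alh-3 (75.7; 25.9 and 44.4). These were followed by rpl-1 and Y71F9AL.9 (75.2; 47.1 and 25.3) and Y48B6A.1 and rpl-43 (74.1; 16.0 and 54.3). Replicate 2 was the higher in 4 of the 5, and the joint values were within the range of the pairs counted as having a summit.

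C06A6.2 itself was not in a pair. It has a head-to-head neighbour beyond 1000 bp, no conservative summit lay within 500 bp of its TSSs, and the nearest was 94690 bp away.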

How the data were processed

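ChIP-seq peak lists of 2 biological replicates of 1 group were analysed. Coordinates, per the deposited text files on the lists, are in ce11, and the lists are ranked or thresholded on the irreproducible discovery rate (IDR), per replicate and jointly. Aligner and peak caller: not given in the sources used here. Signal is the value the authors' caller deposited for a peak. Read numbers were not in the files used, so depth is unknown, and precision comes from numbers of peaks, pairs and genes.

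The joint list labelled conservative (1346 peaks) gave the summits. The thresholded joint list not labelled conservative and the replicates' own thresholded lists (748 and 790 peaks) were alternatives. The replicates' ranked lists (31655 and 28508 peaks) gave the signal per replicate, as that of the highest overlapping peak. Pairs, windows and counts were computed in Python 3.11.15 with numpy 2.4.6, and pair finding was tested on simulated data. Annotation was Ensembl release 115, products and sequence RefSeq, both on WBcel235. Intervals on shares are 95% Wilson intervals (counting error only), and no test over samples was possible with 1 group. Named were the 20 pairs of highest signal, up to 4 pairs per list, pairs with 2 listed genes or 2 summits, pairs at the limits and the 5 leading pairs below the threshold. Other named pairs, the GCGCCA and inverted GAA searches, and the repeat counts were chosen after values were seen. The members and lists were chosen with earlier results of these data known. A pair of the named set is not reported here.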

Additional observations from a re-analysis of the deposited data

How the results depend on the processing

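The 4 main values were recomputed under 12 other settings and 2 more chosen after seeing the data. The share of pairs with a summit (8.31%) fell to 5.23% with the higher-signal part of the list and to 5.12% to 6.40% without a replicate. The share of genes in pairs with a summit (7.76%) was 5.50% and 8.84% with windows of 250 and 1000 bp, 9.36% and 6.41% with starts at most 500 and 2000 bp apart, 5.00% with the higher-signal part, 4.91% to 5.99% without a replicate and 6.75% without summits in repeated sequence. In the same settings the share over all genes was 2.09%, 4.47%, 3.28%, 3.28%, 2.00%, 2.02% to 2.34% and 2.80%. The density ratio (2.86) was 3.66 and 2.33 with windows of 250 and 1000 bp, and 3.48 with starts at most 500 bp apart. The share of summits between the starts (82.2%) was 89.0% with the higher-signal part and 87.5% to 89.9% without a replicate. The cause of these moves was not tested. The other 39 recomputed values moved by less than the counting interval of the main value, and in every setting run the genes in pairs had the higher share. No paired analysis was possible because there is a single group. Depth is unknown, no untagged control was analysed here, and a missing peak is not shown to be an absence of binding.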

Other observations

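Several pairs with a summit join genes of regulators that the lists above do not hold, chosen here after their values were seen. lin-35, the only retinoblastoma-like gene of the worm, and vps-51 had 71.3 jointly (29.6 in replicate 1 and 42.4 in replicate 2), with the summit 201 bp from lin-35. lin-53, a histone-binding protein gene of chromatin complexes that also act with lin-35, and nra-2 had 198 (122 and 74.5), with the summit nearly midway. mrg-1, a chromodomain gene, and spcs-2 had 140 (83.3 and 66.4), and set-26, a histone methyltransferase-type gene, and tsr-2 had 138.5 (50.2 and 81.7). In both of these pairs the summit was nearer to the partner. It was 123 bp from spcs-2 against 252 bp from mrg-1, and 199 bp from tsr-2 against 531 bp from set-26, the last beyond 500 bp. For lin-35 the peak was in neither replicate's own thresholded list, and for the other 3 it was in both. Further genes of this kind lay in pairs without a conservative summit, among them lin-61 with bub-1, lin-38 with mrpl-37, set-17 with T21B10.4, set-32 with mina-1 and mes-6 with tag-77. No list of such regulators was counted, so the share of their pairs with a summit was not tested.

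Some genes of the secretory pathway, also chosen after their values were seen, lay in pairs with a summit between the TSSs. sec-61.B and trap-3, which encode a translocon channel subunit and a subunit of the associated complex, had 184 (89.2 and 97.1 in replicates 1 and 2). A further subunit of that complex, trap-2, in a pair with the cargo receptor gene ile-2 on chromosome X, had 97.3 (47.1 and 49.8). dad-1, an oligosaccharyltransferase subunit gene, and tre-1 had 220 (125 and 92.8), with the summit 62 bp from tre-1. All 3 peaks were in both replicates' own lists. Other genes of these complexes lay in pairs without a conservative summit: trap-4 with ccf-1, ribo-1 with rpn-1 and stt-3 with gen-1. No list of secretory genes was counted, so the share of such pairs with a summit was not tested.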
